A study of Homo sapiens with 19 samples.

Results

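The integrins and laminins were taken as every protein-coding gene whose symbol follows the human naming of integrin alpha subunits, integrin beta subunits or laminin alpha, beta and gamma chains. The rule found 38 genes, 18 integrin alpha subunits, 8 integrin beta subunits and 12 laminin chains, among 44717 gene identifiers and 18485 protein-coding genes. RNA-seq read counts were available for 19 samples in 7 groups. The study asked which genes change when BRG1, the catalytic subunit of a chromatin remodelling complex, or MITF, the lineage transcription factor of melanocytes, is silenced with a lentiviral short hairpin RNA (shRNA). 501Mel, a human melanoma line, was infected with a scramble control named shSCR1 or with shBRG1 (3 samples each), and with a scramble control named shSCR2 or with shMITF (2 samples each). Hermes 3A, an untransformed human melanocyte line, received shSCR, shBRG1 or shMITF (3 samples each), so both of its knockdowns share one control. Counts listed 34033 genes for the Hermes 3A shMITF samples but 42224 for Hermes 3A shSCR and shBRG1. In 501Mel cells they listed 42224 genes for shSCR1 and shBRG1 and 41467 for shSCR2 and shMITF. The reason is not given, so a difference in processing and the effect of shMITF in Hermes 3A cells cannot be told apart. A single hairpin was used per target. 501Mel cells were grown in serum, and Hermes 3A cells in serum with the phorbol ester TPA, cholera toxin, stem cell factor and endothelin-1, so that line and medium cannot be told apart.

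Integrins are receptors made of 1 alpha and 1 beta subunit that span the plasma membrane and couple the extracellular matrix to the actin cytoskeleton. Laminins are cross-shaped trimers of an alpha, a beta and a gamma chain that build the basement membrane, and they are bound by the integrins alpha3, alpha6 and alpha7 with beta1 and alpha6 with beta4. In skin, melanocytes sit on the laminin-rich basement membrane of the epidermis, and melanoma cells meet it when they invade the dermis.

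Promoters are shown for 3 laminin chains called with shBRG1 in 501Mel cells, chosen after their values were seen: LAMA5 and LAMC1, which fell, and LAMA2, which rose. With shSCR2 in place of shSCR1 as the control, LAMA5 and LAMA2 were no longer called. Each line gives the 250 bases before the RefSeq gene start in build GRCh38.p14, 5′ to 3′ in the direction of the gene, with every GGGCGG and its reverse complement (the GC box) in capitals. The windows are chr20:62367313-62367562 on the minus strand, chr1:183023170-183023419 on the plus strand and chr6:128882888-128883137 on the plus strand.
LAMA5: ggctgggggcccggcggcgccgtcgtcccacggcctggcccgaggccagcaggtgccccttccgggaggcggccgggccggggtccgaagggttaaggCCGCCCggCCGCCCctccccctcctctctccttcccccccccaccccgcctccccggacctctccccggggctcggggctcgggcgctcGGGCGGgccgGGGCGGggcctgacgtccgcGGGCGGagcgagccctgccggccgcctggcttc
LAMC1: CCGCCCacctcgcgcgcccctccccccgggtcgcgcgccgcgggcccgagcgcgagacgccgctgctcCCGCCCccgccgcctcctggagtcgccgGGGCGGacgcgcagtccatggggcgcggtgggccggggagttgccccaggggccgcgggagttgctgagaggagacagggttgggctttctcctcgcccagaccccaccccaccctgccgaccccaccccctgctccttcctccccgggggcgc
LAMA2: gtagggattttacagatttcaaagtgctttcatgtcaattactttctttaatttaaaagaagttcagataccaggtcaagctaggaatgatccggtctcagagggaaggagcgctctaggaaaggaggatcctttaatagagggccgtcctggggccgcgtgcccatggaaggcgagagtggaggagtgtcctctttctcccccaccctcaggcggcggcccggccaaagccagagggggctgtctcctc
LAMA5 held 5 GC boxes, LAMC1 held 3 and LAMA2 held none. Of other chains called in that comparison, LAMB1, which fell, held 4. LAMB2 and LAMA3, which fell, held 1 each, and LAMB3, which rose, held 1 in each of its entries. G and C made up 82.8% of the LAMA5 window, 79.6% of that of LAMC1 and 53.2% of that of LAMA2. A GC box on either strand was found in 17 of 33 promoter entries of the 26 genes that had one (51.5%), against 42.6% of all 35116 promoters of this length. CACGTG or CATGTG on either strand, letters of the E-box that MITF binds, stood in 4 of the 33 entries (12.1%), those of ITGA6, ITGAE, ITGB7 and LAMA3, against 15.2% of all promoters. These are matches of letters, and binding at them was not measured here.

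Counts on genes summed to between 29158502 and 78857900 per sample. SMARCA4, the gene of BRG1, had 174, 192 and 181 CPM (the read count relative to the library total, scaled over all 19 samples) with shSCR1 and 36.6, 39.4 and 34.5 CPM with shBRG1 in 501Mel cells, and 246, 258 and 229.7 against 45.4, 47.7 and 49.3 CPM in Hermes 3A cells. MITF had 1003 and 1204 CPM with shSCR2 and 497 and 548 CPM with shMITF in 501Mel cells, and 1021, 1045 and 1131 against 460.2, 724 and 556 CPM in Hermes 3A cells. The shMITF values of 501Mel cells overlap the shSCR1 values, which were 501, 599.7 and 595 CPM. MITF also changed with shBRG1 in 501Mel cells, to 204, 185 and 209.8 CPM, a log2 fold change of -1.55 (SE 0.063, adjusted p = 8e-16). Summed over 7 melanocyte markers, the level lay between 28645.5 and 31321 CPM with shSCR1 and between 3026 and 3332 CPM with shBRG1, and in Hermes 3A cells between 63830 and 65277 CPM with shSCR, 31389 and 32624 CPM with shBRG1 and 26485 and 34362 CPM with shMITF. The melanocyte sum in 501Mel cells was 19856 to 23614 CPM with shSCR2 and 11402 to 11856 CPM with shMITF. The sum over 5 fibroblast markers ran from 3.63 to 5.02 CPM with shSCR1 and from 15.6 to 19.1 CPM with shBRG1 in 501Mel cells. It was 7.54 to 8.13 CPM with shSCR2 and 7.24 to 13.3 CPM with shMITF there. In Hermes 3A cells it ran from 72.0 to 81.2 CPM with shSCR, 143 to 152 CPM with shBRG1 and 112 to 224 CPM with shMITF. Of these 5 markers decorin (DCN) was under 0.5 CPM in every group, COL1A2 in the 501Mel groups and PDGFRB in all groups but 501Mel shBRG1 and both Hermes 3A knockdowns. The part of these shifts in the changes of integrins and laminins was not tested, and in bulk RNA fewer cells of a type and less RNA per cell cannot be told apart. The spread between samples of a group was small in the shBRG1 experiments, with a biological coefficient of variation of 4.56% and 4.65% in 501Mel cells and 5.51% and 5.88% in Hermes 3A cells. It was larger in 501Mel cells with shSCR2 (16.5%) and shMITF (17.4%) and in Hermes 3A cells with shMITF (28.6%). The labels do not say that samples of a group are separate cultures, so p-values measure the spread between these samples, which may be technical.

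In the scramble controls of both lines LAMA1 and LAMC1 made up most of the alpha and gamma chain RNA of laminins, and LAMB2 most of the beta chain RNA except with shSCR2. Levels are compared between genes as CPM per kilobase of exon. LAMA1, the alpha1 chain, had 19.6 ± 0.872 with shSCR1 (SD, n = 3), 15.8 ± 0.347 with shSCR2 (SD, n = 2) and 42.9 ± 0.662 in Hermes 3A shSCR cells (SD, n = 3). It held 75.9% ± 1.36, 82.4% ± 6.21 and 77.5% ± 0.897 of the summed alpha chain level of the same groups. LAMC1, the gamma1 chain shared by most laminins, held 95.7% ± 0.195, 96.3% ± 1.00 and 99.6% ± 0.0693 of the gamma chains. Of the beta chains, LAMB2 (beta2) held 85.2% ± 1.19 with shSCR1 and 73.5% ± 1.24 in Hermes 3A cells, but 48.6% ± 8.28 with shSCR2, where LAMB1 (beta1) held 50.9% ± 8.06. LAMA2, LAMA3 and LAMB4 were below 1 CPM per kilobase in all 3 scramble groups.

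Among integrins, ITGB1, the beta1 subunit that pairs with most alpha subunits, led the beta subunits at 74.3 ± 1.61, 49.0 ± 1.57 and 114 ± 6.27 CPM per kilobase in shSCR1, shSCR2 and Hermes 3A shSCR cells. It held 82.4% ± 0.805, 84.7% ± 1.36 and 67.9% ± 1.41 of the summed beta subunit level, followed by ITGB5 with 16.9% ± 0.748, 14.1% ± 1.00 and 23.4% ± 1.35. ITGA7, a laminin receptor subunit best known from muscle, led the alpha subunits with 57.3% ± 1.74 of their sum with shSCR1 and 30.8% ± 1.58 in Hermes 3A cells. With shSCR2 it held 25.8% ± 2.98, close to ITGAV, the alphaV subunit of vitronectin receptors, with 28.5% and 29.5% in the 2 samples. Of the 38 genes, 12 were under 1 CPM on average with shSCR1, 17 with shSCR2 and 12 in Hermes 3A shSCR cells. ITGA8 and ITGB6 had too few counts to be tested in any of the 4 knockdown comparisons.

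**Figure D1:**
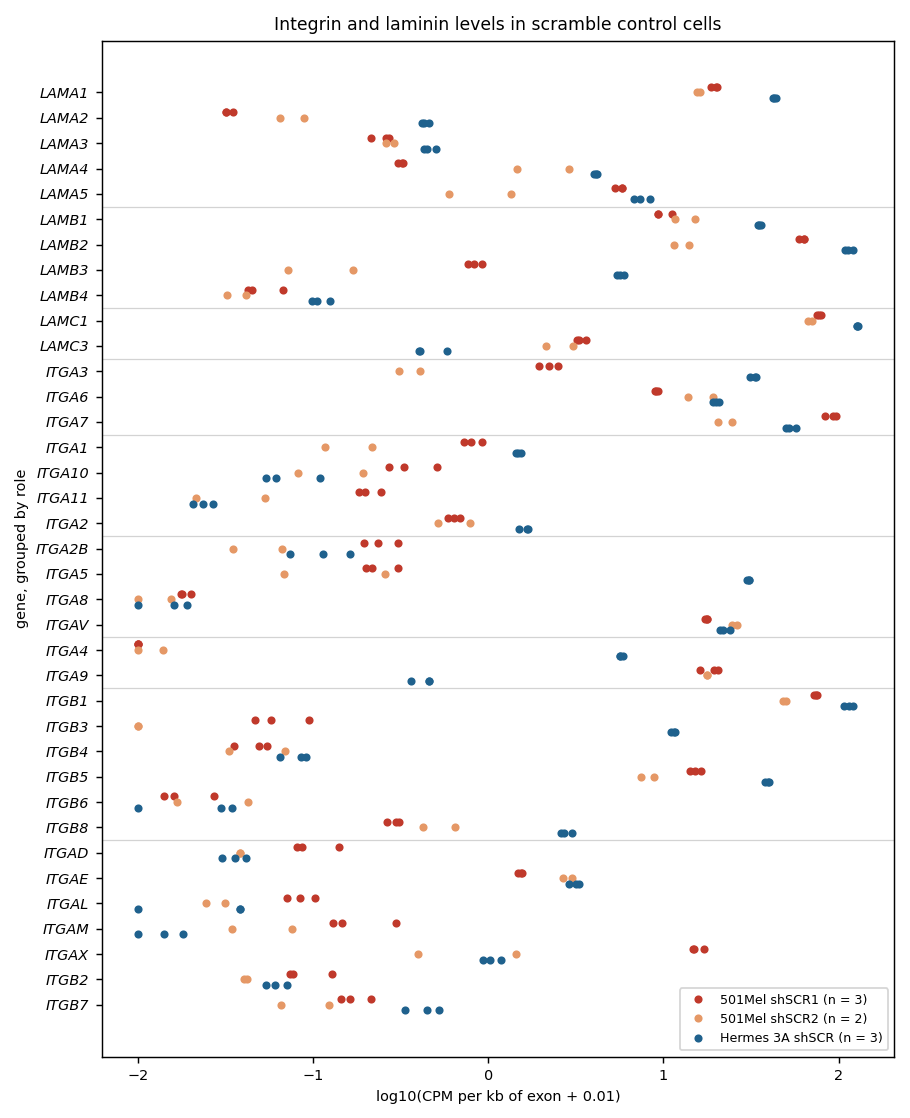
Level of 37 of the 38 genes in every scramble control sample, as log10 of CPM per kilobase of exon plus 0.01 (x axis), with genes grouped by role (y axis); red and orange points are 501Mel shSCR1 (n = 3) and shSCR2 (n = 2), blue points Hermes 3A shSCR (n = 3). LAMC1, LAMB2, ITGB1 and ITGA7 lie to the right in all 3 groups, except LAMB2 and ITGA7, which are lower with shSCR2, while ITGA4, ITGA5, ITGA3 and ITGB3 are far to the right in Hermes 3A cells only.

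The lines differed in the RNA levels of integrin subunits and laminin chains. A gene was called where edgeR's quasi-likelihood test gave an adjusted p (Benjamini-Hochberg over all genes tested) under 0.05 and the log2 fold change exceeded 1 in size, and fold changes are log2 values from that fit. With the mean of both 501Mel scramble groups set against Hermes 3A shSCR, 6 of 36 tested genes were called higher in 501Mel cells and 17 lower, against a background of 20.1% and 18.0% of all genes. The median difference was -0.85 over the 36 genes and 0.08 over all genes. The laminins were at lower levels in melanoma cells, with 8 of 12 called lower (LAMA1, LAMA2, LAMA4, LAMA5, LAMB1, LAMB2, LAMB3 and LAMB4) and 1 called higher, LAMC3.

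ITGA5, the alpha5 subunit of the fibronectin receptor, had 232, 234 and 226 CPM in Hermes 3A cells, 2.24, 1.43 and 1.57 with shSCR1 and 1.88 and 0.443 with shSCR2, a difference of -7.47 (SE 0.30, adjusted p = 1.4e-06). ITGA4, the alpha4 subunit that binds VCAM1 and fibronectin, had 44.5, 44.7 and 46.1 CPM in Hermes 3A cells and 0 counts in each of the 3 shSCR1 samples, a level at least 526-fold higher if 3 counts per sample are taken as the limit of detection. ITGB3, the beta3 subunit of the vitronectin receptor, had 50.6, 48.3 and 50.8 CPM in Hermes 3A cells and 0.160, 0.208 and 0.372 with shSCR1. It had 0 counts in both shSCR2 samples, so that Hermes 3A cells were at least 532-fold higher by the same limit. ITGA3, the alpha3 subunit of a laminin receptor, had 328, 332 and 308 CPM in Hermes 3A cells against 24.5, 21.8 and 19.0 and 3.91 and 2.92 CPM in the 501Mel groups, a difference of -5.22 (SE 0.10, adjusted p = 6.7e-15). In the other direction, ITGA9, a partner of beta1 that binds tenascin and osteopontin, had 134, 169 and 160.3 CPM with shSCR1, 147 and 146 with shSCR2 and 3.70, 2.92 and 3.72 in Hermes 3A cells, a difference of 5.47 (SE 0.11, adjusted p = 2e-16). For these 5 genes no sample of one line reached the range of the other.

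ITGB5, ITGB8 and ITGB7 were lower in 501Mel cells, with differences of -1.78, -2.80 and -1.74, as were the collagen receptor subunits ITGA1 (-2.07) and ITGA2 (-1.32). The collagen receptor subunits ITGA10 and ITGA11 and the leukocyte subunits ITGAX and ITGAM were higher in 501Mel cells by 1.75, 2.30, 1.84 and 4.17. ITGA11 had 2.54, 2.04 and 1.89 CPM with shSCR1, while its shSCR2 values, 0.469 and 0.124 CPM, overlap those of Hermes 3A cells, 0.184, 0.149 and 0.115 CPM. With shSCR1 alone its difference was 3.87, and with shSCR2 alone ITGA11 and ITGAM had too few counts to be tested. ITGAV was not called, with 145, 141 and 145 and 215 and 203 CPM in the 501Mel groups and 180.0, 172 and 197 CPM in Hermes 3A cells, a difference of -0.05 (SE 0.06, adjusted p = 0.5). Its shSCR1 samples all lay below the Hermes 3A range and both shSCR2 samples above it, so this difference of means does not show equal levels. With shSCR1 as the only 501Mel control, ITGA1 (-0.84), LAMA5 (-0.38) and LAMB2 (-0.84) came under the threshold, and with shSCR2 alone ITGA10 (0.96) and LAMA4 (-0.90) did, while ITGAX turned to -0.19.

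The scramble groups of 501Mel cells were themselves unlike. Of 35 tested genes, 2 were called higher with shSCR2 than with shSCR1 (LAMA2 and LAMA4) and 16 lower, against 33.0% of all genes in either direction. LAMB2 went from 435, 433 and 410.3 CPM with shSCR1 to 78.5 and 96.5 with shSCR2, ITGA7 from 531, 612 and 589 to 158 and 131 and ITGA3 from 24.5, 21.8 and 19.0 to 3.91 and 2.92, with no overlap between the groups. LAMA4 (alpha4 chain of vascular laminins) went the other way, from 3.66, 3.44 and 3.63 to 33.3 and 16.9 CPM. Hairpin, batch, culture and processing cannot be told apart here. Many values in 501Mel cells are therefore also given below with the other scramble group as the control, an alternative chosen after seeing the data. Where no such value stands, the change against the other control is not given.

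With shBRG1 in 501Mel cells 7 of 12 laminin chains fell against shSCR1, as did ITGA7 and ITGA6, 2 of the 3 alpha subunits of laminin receptors. ITGA3, the other of these subunits, was not called (-0.62). Of 35 tested genes, 6 rose and 12 fell, where 21.7% of all genes rose and 17.4% fell. The median log2 fold change was -0.43 over the 35 genes and 0.05 over all genes. Of the 12 laminins 7 fell and 3 rose, with a median of -1.42, and of the 23 tested integrins 5 fell and 3 rose, with a median of -0.31. With shMITF in 501Mel cells 4 of 32 tested genes rose and 3 fell (5.59% and 3.40% of all genes), with a median of 0.24 against 0.01. In Hermes 3A cells shBRG1 gave 2 rises and 4 falls among 32 tested genes (5.78% and 3.47% of all genes; median 0.18 against 0.01), and shMITF gave 1 rise and 6 falls among 31 (3.35% and 4.04% of all genes; median -0.34 against 0.05). Scaled by total counts instead of TMM factors, which raised the median of all genes to 0.40 with shBRG1 in 501Mel and to 0.11 in Hermes 3A cells, the counts of rises and falls were 8 and 10 in 501Mel and 5 and 3 in Hermes 3A cells. Over all genes that scaling gave 6192 rises and 2398 falls of 20514 in 501Mel and 1231 and 467 of 17222 in Hermes 3A cells. A stricter test of a log2 fold change beyond 1 (glmTreat) left 5 rises and 12 falls with shBRG1 in 501Mel cells, 1 rise with shMITF in 501Mel cells, 3 falls with shBRG1 and 1 fall with shMITF in Hermes 3A cells. The counts of that test over all genes were 3130 and 2899 of 20514, 141 of 17701, 244 of 17222 and 102 of 16508 in turn. Across the 4 comparisons 26 genes were called at least once, 12 never, and 29 could be tested in all 4. ITGA7 and ITGAX were the 2 genes that fell in all 4, and LAMB3 was the 1 gene called in opposite directions.

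The medians in 501Mel cells changed sign with the scramble group. With shSCR2 as the control for shBRG1, 14 of 36 genes rose and 11 fell (32.0% and 20.1% of all genes). The median was then 0.30, against 0.15 over all genes, and -0.16 with both scramble groups pooled. Against shSCR2 the laminins gave 2 rises and 6 falls with a median of -0.99, and the integrins 12 rises and 5 falls with a median of 0.93. Of the 9 rises gained, ITGA1 was 2.55, ITGA3 2.08, ITGA5 1.63 and ITGB5 1.17, and the others were ITGA2B, ITGA8, ITGAL, ITGAM and ITGB3, with 0 to 12 counts in each shSCR2 sample. The 2 falls gained were LAMA4 at -2.87 (adjusted p = 7.9e-05) and ITGB8 at -1.37 (adjusted p = 6.3e-05), and the calls lost were those of LAMA2, LAMA5, LAMB2 and ITGA11. Among laminins LAMA1 (-1.43), LAMA3 (-1.84), LAMB1 (-1.70), LAMC1 (-1.42) and LAMC3 (-1.49) kept their falls. ITGA6 (-1.97), ITGA7 (-2.38), ITGA9 (-2.56) and ITGAX (-1.48) did so among integrins. Rises kept included those of LAMB3 (4.73) and ITGA10 (4.26). With shSCR1 as the control for shMITF, 5 of 35 genes rose and 13 fell (12.2% and 17.6% of all genes), and the median was -0.73, or -0.14 with both groups pooled and -0.016 without shSCR2 replicate 2. Against shSCR1 the targeted gene MITF itself was at -0.12 (adjusted p = 0.28). The 4 rises gained were ITGA6 (1.46), ITGB4 (1.57), LAMA2 (1.64) and LAMA4 (2.79). The 10 falls gained included LAMA5 (-2.42), LAMB3 (-2.36), ITGA2B (-2.24), ITGAM (-1.97), ITGAL (-1.65), LAMB2 (-1.61), ITGA5 (-1.34), ITGB7 (-1.13) and ITGB3, and the calls lost were those of ITGA1, ITGA3 and ITGB5. LAMC3 (-2.02), ITGA7 (-3.51) and ITGAX (-7.17) kept their falls, and ITGA10 (1.60) kept its rise.

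**Figure D2:**
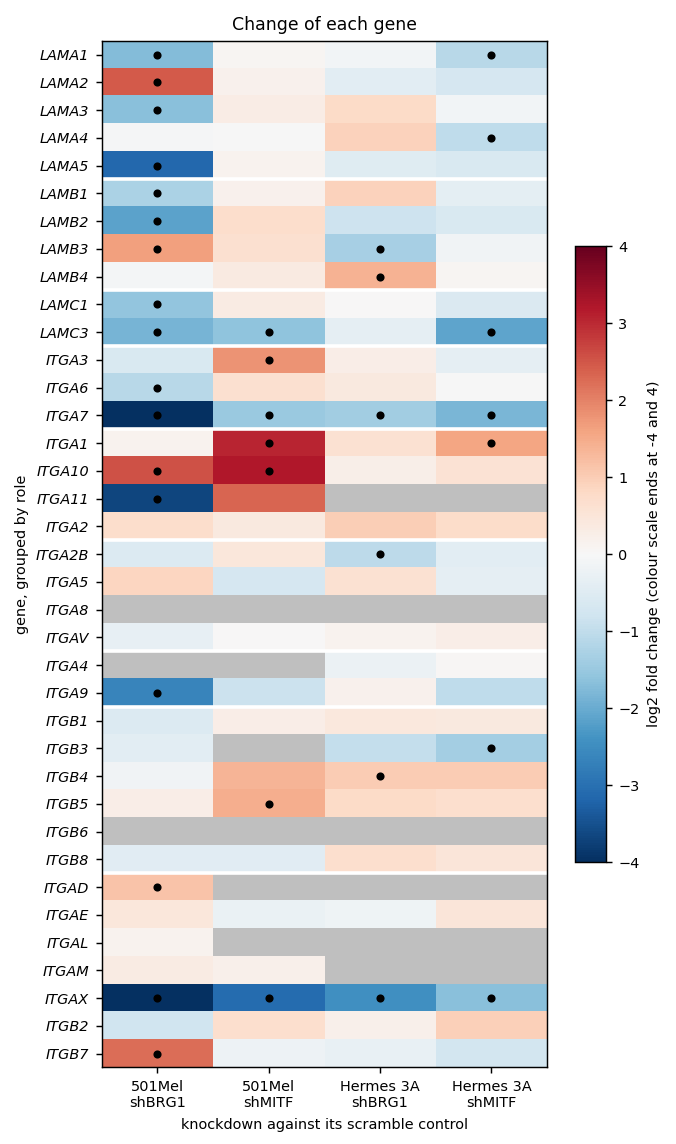
Log2 fold change of 37 of the 38 genes (rows, grouped by role) in the 4 knockdown comparisons (columns), on a colour scale that ends at -4 and 4; dots mark called genes and grey cells were not tested. The first column holds 17 of the called cells, 12 blue and 5 red, and the rows of ITGA7 and ITGAX carry a dot in all 4 columns.

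Among laminin alpha chains, LAMA1 (ENSG00000101680, chromosome 18 from 6941744 to 7117814, minus strand, GENCODE 29) is the chain of the first embryonic basement membranes. It had 295, 320.0 and 317 CPM with shSCR1 and 101, 92.2 and 99.0 CPM with shBRG1 in 501Mel cells, a log2 fold change of -1.72 (SE 0.05, adjusted p = 2.5e-19). Hermes 3A cells had 681, 692 and 671 CPM with shSCR, 632, 632 and 656 with shBRG1 and 288, 268 and 387 with shMITF. The shMITF samples lay below all controls, a log2 fold change of -1.10 (SE 0.16, adjusted p = 0.0044), while shBRG1 gave -0.11 (SE 0.04, adjusted p = 0.026), under the fold threshold. Without Hermes 3A shMITF replicate 2 the former was -0.999 and just missed the threshold. In 501Mel cells shMITF left 292 and 238 CPM beside 255 and 248 with shSCR2, ranges that overlap.

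LAMA5 (ENSG00000130702, chromosome 20 from 62307955 to 62367312, minus strand), the alpha5 chain of adult epithelial and vascular basement membranes, had the steepest fall among laminins, from 83.0, 82.7 and 75.6 CPM with shSCR1 to 9.86, 10.2 and 8.51 CPM with shBRG1 in 501Mel cells, or -3.13 (SE 0.064, adjusted p = 4.5e-22). The shSCR2 samples, at 19.1 and 8.41 CPM, lay close to the knockdown, and with shSCR2 as the control the fall was -0.57 (adjusted p = 0.14). LAMA5 shares 244 exonic bases with ADRM1 on the opposite strand, a gene that changed by 0.98 in the same comparison, so reads there are of uncertain origin. Among melanocyte samples LAMA5 went from 105, 120.1 and 96.8 to 74.9, 75.5 and 81.5 CPM with shBRG1, a log2 fold change of -0.49 (SE 0.059, adjusted p = 2.2e-07), under the fold threshold.

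LAMA3, the alpha3 chain of the epidermal anchoring laminin, went from 2.98, 3.66 and 3.83 CPM to 1.04, 1.06 and 1.31 CPM with shBRG1 in 501Mel cells, -1.66 (SE 0.15, adjusted p = 4.7e-10). Its Hermes 3A values moved the other way under the fold threshold, from 6.44, 7.24 and 6.14 to 11.0, 11.5 and 11.7 CPM, 0.78 (SE 0.093, adjusted p = 3.4e-08). LAMA2, the alpha2 chain of muscle and nerve, rose with shBRG1 in 501Mel cells from 0.260, 0.227 and 0.229 to 1.52, 1.24 and 1.31 CPM, 2.45 (SE 0.24, adjusted p = 1.8e-09), on counts between 8 and 92 per sample. With shSCR2 as the control that rise was 0.99, just under the threshold. LAMA4 was not called with shBRG1 in 501Mel cells against shSCR1 (-0.05), but was called lower against shSCR2 (-2.87, adjusted p = 7.9e-05). In Hermes 3A cells it went from 46.1, 47.5 and 48.4 CPM to 86.4, 92.2 and 92.5 with shBRG1, 0.92 and thus under the threshold, and to 14.6, 27.0 and 28.3 with shMITF. The shMITF fall of -1.002 (SE 0.23, adjusted p = 0.022) ended without shMITF replicate 1 (-0.76) or when scaled by total counts (-0.89), or without any 1 control, at an adjusted p between 0.063 and 0.088.

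Of the beta chains, LAMB2 (ENSG00000172037, chromosome 3 from 49121114 to 49133118, minus strand) fell with shBRG1 in 501Mel cells from 435, 433 and 410.3 to 97.3, 106 and 94.1 CPM, -2.16 (SE 0.051, adjusted p = 6.1e-21). This result depended on the control: against shSCR2, at 78.5 and 96.5 CPM, the same shBRG1 samples gave 0.12 (adjusted p = 0.23), and against both scramble groups pooled -1.56 (adjusted p = 0.063). LAMB2 in Hermes 3A cells went from 773, 833 and 745 CPM to 458, 436 and 449 with shBRG1 and to 424, 492 and 607 with shMITF, -0.82 and -0.61, both under the fold threshold. LAMB1 (ENSG00000091136, chromosome 7 from 107923799 to 108003255, minus strand) fell in 501Mel cells from 91.4, 75.6 and 75.8 to 34.6, 33.5 and 37.0 CPM, -1.26 (SE 0.067, adjusted p = 8.7e-14), or -0.91 when scaled by total counts. With shBRG1 in Hermes 3A cells LAMB1 went from 280.3, 286 and 293 to 559.7, 545 and 551 CPM, higher in all 3 samples than in any control, at 0.93 (SE 0.039, adjusted p = 9.8e-18), just under the threshold.

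LAMB3 (beta3, partner of LAMA3 in the epidermal laminin) rose with shBRG1 in 501Mel cells from 4.28, 3.83 and 3.55 to 12.0, 14.2 and 11.3 CPM, 1.63 (SE 0.10, adjusted p = 3.6e-13). Hermes 3A cells showed the reverse, a fall from 27.9, 26.6 and 25.6 to 11.7, 10.5 and 10.1 CPM, -1.33 (SE 0.074, adjusted p = 4.9e-15). With shMITF it was at 25.3, 17.2 and 28.4 CPM in Hermes 3A cells, which overlaps the controls. LAMB4, at under 3 CPM in every sample, rose with shBRG1 in Hermes 3A cells from 0.667, 0.625 and 0.808 to 1.66, 2.18 and 1.73 CPM, 1.39 (SE 0.23, adjusted p = 6.8e-06).

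Of the gamma chains, LAMC1 and LAMC3 fell with shBRG1 in 501Mel cells. LAMC1 (ENSG00000135862, chromosome 1 from 183023460 to 183145592, plus strand) fell from 630.0, 669.8 and 645 to 236, 209.6 and 230.0 CPM with shBRG1, -1.58 (SE 0.051, adjusted p = 1.8e-18), with shSCR2 controls at 562 and 595 CPM. Hermes 3A cells had 1089, 1072 and 1069 CPM with shSCR and 1112, 1088 and 1075 with shBRG1, ranges that overlap at 0.004 (SE 0.041, adjusted p = 0.94). LAMC3 fell with shBRG1 in 501Mel cells from 25.1, 27.4 and 24.2 to 7.02, 7.23 and 7.46 CPM, -1.87 (SE 0.07, adjusted p = 2.6e-17). It also fell with shMITF in both lines, from 23.0 and 16.2 to 8.14 and 4.66 CPM in 501Mel cells, -1.62 (SE 0.31, adjusted p = 0.0097), and from 2.97, 4.32 and 3.02 to 0.546, 1.28 and 0.487 CPM in Hermes 3A cells, -2.12 (SE 0.42, adjusted p = 0.012). The Hermes 3A fall lost its call without shSCR replicate 2, at -1.93 (adjusted p = 0.065).

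Summed per kilobase, the alpha chains of 501Mel cells went from 25.8 ± 0.807 (SD, n = 3) with shSCR1 to 7.32 ± 0.321 (SD, n = 3) with shBRG1, the beta chains from 72.9 ± 2.88 to 21.4 ± 1.01 and the gamma chains from 80.6 ± 2.52 to 28.2 ± 1.66 CPM per kilobase. The make-up shifted as well, since LAMB3 held 1.14% ± 0.0646 of the beta chains before and 12.4% ± 0.936 after. The sums with shSCR2 were 19.3 ± 1.88, 26.3 ± 0.686 and 71.4 ± 2.11 CPM per kilobase (SD, n = 2) for alpha, beta and gamma chains. The same sums in Hermes 3A cells were 55.4 ± 1.49 and 54.6 ± 1.35 for alpha, 155 ± 6.27 and 136 ± 2.59 for beta, and 129 ± 1.30 and 130.3 ± 2.28 for gamma chains. Within the beta chains, LAMB1 went from 22.7% ± 1.17 to 50.0% ± 0.285 of the sum in Hermes 3A cells and LAMB2 from 73.5% ± 1.24 to 48.1% ± 0.294. These sums and shares are descriptions and were not tested.

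**Figure D3:**
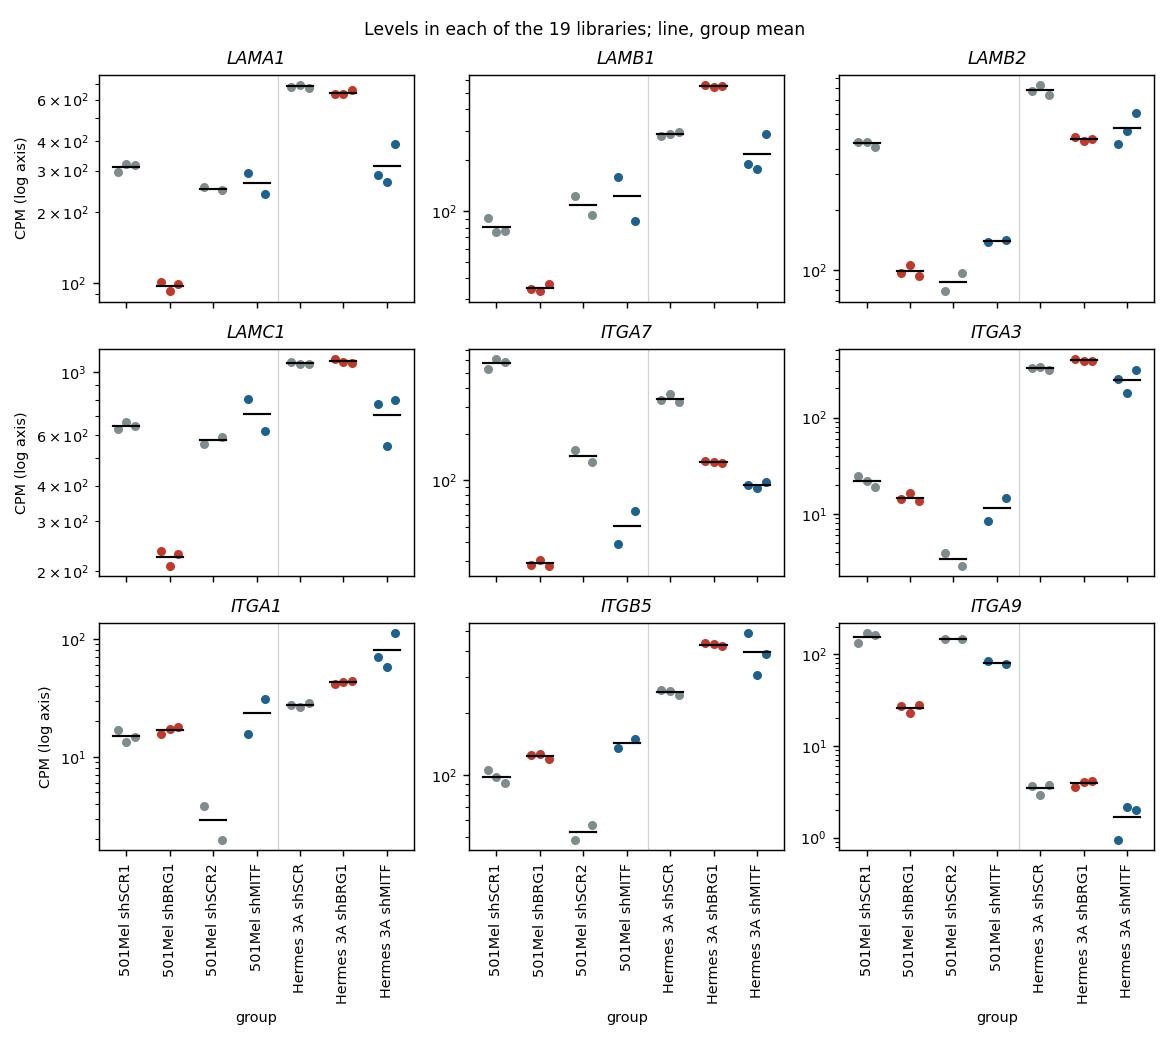
Level in each of the 19 samples (points, CPM on a log axis) of 9 genes, with a line at each group mean; grey points are scramble controls, red shBRG1 and blue shMITF, and the vertical line parts 501Mel from Hermes 3A groups. LAMA1, LAMB1 and LAMC1 are lowest in the 3 shBRG1 samples of 501Mel cells, whereas ITGA7 lies below its controls under both knockdowns in both lines and LAMB2, ITGA3 and ITGA1 are low with shSCR2.

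Of the laminin-binding integrin subunits, ITGA7 (ENSG00000135424, chromosome 12 from 55684568 to 55716043, minus strand) was the one that fell in all comparisons. With shBRG1 in 501Mel cells it went from 531, 612 and 589 to 28.2, 30.5 and 28.0 CPM, -4.37 (SE 0.061, adjusted p = 1.4e-24), and in Hermes 3A cells from 331, 364 and 321 to 134, 132 and 129 CPM, -1.38 (SE 0.045, adjusted p = 2.9e-20). With shMITF it went from 158 and 131 to 38.6 and 63.1 CPM in 501Mel cells, -1.49 (SE 0.27, adjusted p = 0.015), and to 92.6, 89.8 and 98.2 CPM in Hermes 3A cells, -1.83 (SE 0.12, adjusted p = 0.00036). No knockdown sample overlapped its controls in any of the 4. With the other scramble group as the control, the 501Mel changes were -2.38 (adjusted p = 1.79e-08) with shBRG1 and -3.51 (adjusted p = 8.26e-06) with shMITF. The 501Mel shMITF call was lost without shSCR2 replicate 1 (-1.31, adjusted p = 0.1) or replicate 2 (-1.67, adjusted p = 0.078). Its share of the alpha subunit level went from 57.3% ± 1.74 to 12.6% ± 0.968 with shBRG1 in 501Mel cells, where ITGAV, at 40.4% ± 1.99, then came first.

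ITGA6 (ENSG00000091409, chromosome 2 from 172427354 to 172506282, plus strand) fell with shBRG1 in 501Mel cells from 58.3, 59.1 and 60.8 to 29.8, 26.8 and 29.7 CPM, -1.09 (SE 0.054, adjusted p = 5.7e-15). Its change was -0.75 when scaled by total counts and -0.97 with only genes of at least 10 counts in every sample. Melanocytes had 129.7, 125 and 136 CPM with shSCR and 174, 168 and 170.3 with shBRG1, 0.38 (SE 0.041, adjusted p = 5.7e-09), under the threshold. ITGA3 rose with shMITF in 501Mel cells from 3.91 and 2.92 to 8.54 and 14.7 CPM, 1.79 (SE 0.33, adjusted p = 0.0073). The shSCR1 samples stood higher than both groups, at 24.5, 21.8 and 19.0 CPM, and against them the change turned to -0.91 (adjusted p = 0.0095), and against both scramble groups pooled to -0.31 (adjusted p = 0.85). With shBRG1 ITGA3 was not called in either line, at -0.62 in 501Mel cells against shSCR1, but it was called higher there against shSCR2, at 2.08 (adjusted p = 1.4e-06). Against both scramble groups pooled, the shMITF calls of ITGA1, ITGA3, ITGA7, ITGA10, ITGAX and ITGB5 in 501Mel cells all ended, at adjusted p between 0.084 and 0.85, and LAMC3 kept its call.

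Among the collagen-binding subunits, ITGA1 (ENSG00000213949, chromosome 5 from 52787896 to 52959210, plus strand) rose with shMITF in both lines. In Hermes 3A cells it went from 27.4, 26.6 and 28.4 to 71.1, 58.2 and 112 CPM, 1.57 (SE 0.22, adjusted p = 0.0034). In 501Mel cells ITGA1 went from 3.85 and 1.98 to 15.7 and 31.2 CPM, 3.06 (SE 0.50, adjusted p = 0.012), but the shSCR1 samples had 16.8, 13.3 and 14.7 CPM and gave 0.65 (adjusted p = 0.067) as the control, and without shSCR2 replicate 2 the call was lost at 2.56 (adjusted p = 0.072). ITGA1 shares 475 exonic bases with PELO on the same strand, whose change with shMITF was 0.13 in 501Mel and 0.06 in Hermes 3A cells.

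ITGA10, a collagen receptor subunit of cartilage, rose in 501Mel cells under both knockdowns, from 3.18, 2.02 and 1.66 to 13.2, 15.4 and 14.0 CPM with shBRG1, 2.55 (SE 0.14, adjusted p = 5.5e-12), and from 1.16 and 0.456 to 8.05 and 6.11 CPM with shMITF, 3.21 (SE 0.47, adjusted p = 0.0029). With shSCR1 as the control the latter was 1.60 (adjusted p = 0.00069). It stayed at or below 1.15 CPM in all 9 Hermes 3A samples. ITGA11 fell with shBRG1 from 2.54, 2.04 and 1.89 to 0.116, 0.252 and 0.152 CPM, -3.67 (SE 0.25, adjusted p = 2.3e-12), on 7 to 15 counts per knockdown sample. The shSCR2 samples had 0.469 and 0.124 CPM, and against them the value was -0.53 (adjusted p = 0.43). ITGA2 was not called in any knockdown comparison, with 0.71 and 0.997 for shBRG1 in 501Mel and Hermes 3A cells.

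The RGD-binding subunits ITGAV and ITGA5 were not called in any knockdown against its own control, although ITGA5 went from 232, 234 and 226 to 347, 351 and 360.0 CPM with shBRG1 in Hermes 3A cells, 0.60 (SE 0.038, adjusted p = 1e-13). ITGA2B, the platelet subunit, was called lower with shBRG1 in Hermes 3A cells at -1.06 (SE 0.40, adjusted p = 0.026), with 0.851, 0.357 and 0.577 CPM against 0.155, 0.375 and 0.336 CPM in groups that overlap, and the call ended without shSCR replicate 1 (-0.72) or shBRG1 replicate 1 (-0.78), when scaled by total counts (-0.96), with DESeq2 (adjusted p = 0.053) and in one fit of all Hermes 3A groups (adjusted p = 0.14). ITGA9 fell with shBRG1 in 501Mel cells from 134, 169 and 160.3 to 27.1, 22.7 and 27.6 CPM, -2.63 (SE 0.091, adjusted p = 6e-12). With shMITF it went from 147 and 146 to 84.1 and 77.7 CPM, -0.85 (SE 0.12, adjusted p = 0.0021), under the fold threshold. ITGA4 had no more than 2 counts in any 501Mel sample, and in Hermes 3A cells it was not called with either hairpin.

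Of the beta subunits, ITGB1 (ENSG00000150093, chromosome 10 from 32900319 to 33005792, minus strand) was not called in any knockdown. It went from 455, 449 and 436 to 329, 294 and 317 CPM with shBRG1 in 501Mel cells, -0.56 (SE 0.048, adjusted p = 2.3e-10), and from 693, 647 and 722 to 962, 918 and 895 CPM in Hermes 3A cells, 0.41 (SE 0.044, adjusted p = 4.6e-09). ITGB5 rose with shMITF in 501Mel cells from 48.2 and 57.1 to 136 and 150.1 CPM, 1.46 (SE 0.13, adjusted p = 0.00036), a value of 0.53 (adjusted p = 0.00064) against shSCR1. ITGB5 in Hermes 3A cells was higher with both hairpins, 436, 433 and 424 CPM with shBRG1 and 489, 308 and 388 with shMITF against 259.5, 256 and 244, at 0.75 and 0.66, under the threshold. ITGB3 fell with shMITF in Hermes 3A cells from 50.6, 48.3 and 50.8 to 19.9, 18.2 and 19.9 CPM, -1.35 (SE 0.12, adjusted p = 0.00063), and had 27.1, 25.0 and 26.0 CPM with shBRG1, -0.96 (SE 0.059, adjusted p = 3.8e-14), just under the threshold.

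ITGB8, a subunit that pairs with alphaV to activate latent TGF-beta, went from 40.8, 39.2 and 45.1 to 68.3, 65.9 and 68.0 CPM with shBRG1 in Hermes 3A cells, 0.68, and was not called. ITGB4, the laminin receptor subunit of hemidesmosomes, stayed under 1.2 CPM in every sample and was called higher with shBRG1 in Hermes 3A cells at 1.02 (SE 0.30, adjusted p = 0.0052), on 44 to 49 counts against 16 to 24. That call ended without shSCR replicate 3 (0.86) or shBRG1 replicate 3 (0.88).

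Of the 7 leukocyte subunits, ITGAX (ENSG00000140678, chromosome 16 from 31355134 to 31382997, plus strand), the alphaX chain of dendritic cells, was the most abundant with shSCR1. It went from 121, 104 and 105 CPM to 2.27, 2.13 and 2.59 CPM with shBRG1 in 501Mel cells, -5.61 (SE 0.083, adjusted p = 3.3e-24), and from 10.1 and 2.74 to 0.577 and 0.931 CPM with shMITF, -3.08 (SE 0.72, adjusted p = 0.032). With the other scramble group as the control these changes were -1.48 (adjusted p = 0.0305) and -7.17 (adjusted p = 7.2e-08), so their size depended on the control. In Hermes 3A cells it went from 6.51, 8.25 and 7.18 to 1.29, 1.41 and 1.32 CPM with shBRG1, -2.45 (SE 0.14, adjusted p = 1.5e-14), and to 2.47, 1.92 and 2.36 CPM with shMITF, -1.68 (SE 0.22, adjusted p = 0.0026). The knockdown and control samples did not overlap in any of the 4 comparisons, but the 501Mel shMITF call was lost without shMITF replicate 1 (-2.76, adjusted p = 0.23) or replicate 2 (-3.51, adjusted p = 0.24), and the value was -1.80 without shSCR2 replicate 1. Its partner ITGB2 had 0.800, 0.434 and 0.457 CPM with shSCR1, and 4 leukocyte markers (PTPRC, CD3E and CD68 among them) summed to between 1.00 and 1.36 CPM in those samples, with PTPRC under 0.5 CPM.

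ITGB7 rose with shBRG1 in 501Mel cells from 0.920, 0.604 and 0.686 to 3.41, 3.86 and 3.54 CPM, 2.23 (SE 0.16, adjusted p = 9.4e-12). It shares 1886 exonic bases with ZNF740 on the opposite strand, which changed by -0.63. ITGAD was called higher in the same comparison at 1.14 (SE 0.24, adjusted p = 0.00017), at no more than 1.04 CPM, and came under the threshold without shSCR1 replicate 2 (0.96). ITGAE, ITGAL, ITGAM and ITGB2 were called in none of the knockdowns against their own controls, with log2 fold changes of 0.45, 0.13, 0.33 and -0.78 for shBRG1 in 501Mel cells.

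The response to shBRG1 was not the same in melanoma cells and melanocytes. The difference of the log2 fold changes, 501Mel minus Hermes 3A, was tested as an interaction in one fit of the 4 groups. Of 36 tested genes, 6 were called with a higher effect in 501Mel cells and 17 with a lower one, while 26.9% of all genes were called in either direction. The median difference was -0.96 over the 36 genes and -0.03 over all genes, but 0.45 over the genes tested with shSCR2 as the 501Mel control. With shSCR1 all 12 laminins were called, 9 with a lower and 3 with a higher effect in 501Mel cells, LAMA2 and LAMB3 among the latter. For LAMB1 the difference was -2.22 (SE 0.08, adjusted p = 1.7e-23), with a fall in 501Mel cells and a higher level in Hermes 3A cells, for LAMC1 it was -1.61 (SE 0.067, adjusted p = 3.3e-22) and for LAMA1 -1.65 (SE 0.063, adjusted p = 3.6e-23). LAMB3 differed by 2.93 (SE 0.13, adjusted p = 1.7e-21), in the opposite sense. ITGA7 and ITGAX, although they fell in both lines, differed by -3.02 (SE 0.071, adjusted p = 1.1e-29) and -3.20 (SE 0.17, adjusted p = 1.4e-18) with shSCR1 as the control, and by -0.97 and 1.02 with shSCR2.

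**Figure D4:**
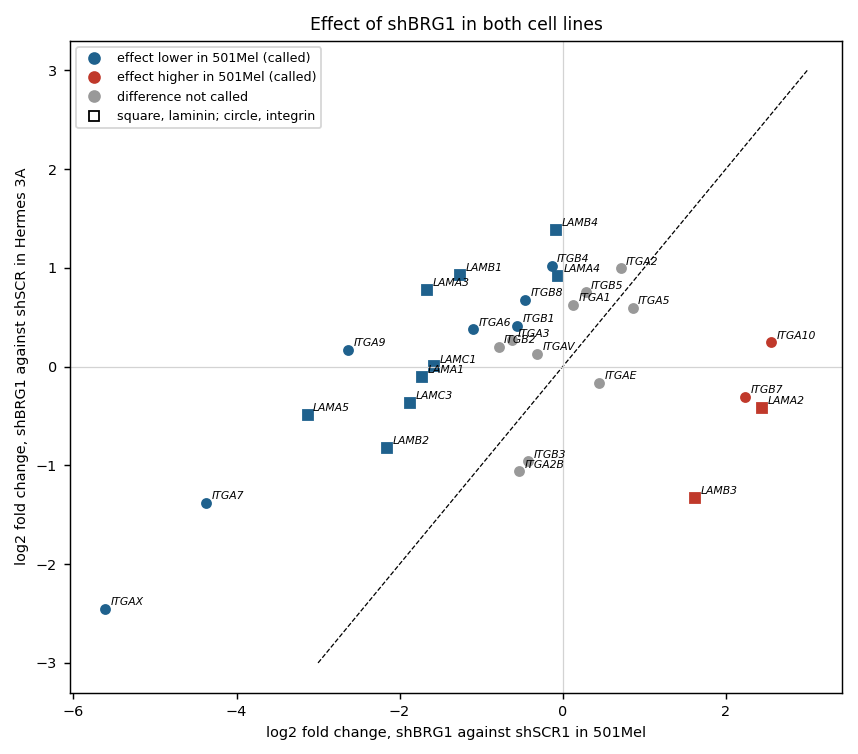
Log2 fold change with shBRG1 in 501Mel (x axis) and in Hermes 3A cells (y axis) for genes tested in both lines; squares are laminins, circles integrins, blue and red mark genes whose effect was called lower or higher in 501Mel cells, and the dashed line marks equal effects. Most blue points lie left of the dashed line with values near or above 0 in Hermes 3A cells, ITGA7 and ITGAX lie at the lower left, and LAMB3 and LAMA2 lie at the lower right.

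These differences used shSCR1 as the 501Mel control. With shSCR2 in its place, the counts were 13 higher and 10 lower among 37 tested genes (35.6% of all genes in either direction), ITGAX turned to 1.02 (adjusted p = 0.22) and LAMB2 to 0.97 (adjusted p = 1.2e-08), LAMA5 went to -0.004 and ITGA11 to -0.52, whereas LAMA1 (-1.29), LAMB1 (-2.60), LAMC1 (-1.39) and LAMB3 (6.12) kept sign and call. ITGA7 (-0.97), LAMB4 (-0.87), ITGB1 (-0.35) and ITGA4 (1.31, adjusted p = 0.39) kept their sign but not their call. With that control 19 genes had a positive and 18 a negative difference, and 8 more were called higher, with ITGA2B at 3.27, ITGAD at 2.52, ITGAL at 2.10, ITGA1 at 2.00, ITGA3 at 1.88 and ITGA5 at 1.23, and with ITGAM and ITGB3, which have at most 12 counts in shSCR2 samples. The values of ITGB1 (-1.003, SE 0.07, adjusted p = 2.4e-15) and LAMA4 (-1.001, SE 0.11, adjusted p = 7.7e-10) sat on the fold threshold, and that of ITGA4 (3.48, SE 1.33, adjusted p = 0.042) rested on 0 to 2 counts in 501Mel samples. Without single samples the counts ran from 4 to 6 higher and from 14 to 18 lower. ITGB4 (-1.18, SE 0.48, adjusted p = 0.035) lost its call in 6 of the 12 fits without 1 sample.

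For shMITF the same test called 3 of 34 genes with a higher effect in 501Mel cells and none with a lower one, against 2.64% of all genes in either direction. At an unadjusted p under 0.05 there were 9 higher and 1 lower, and DESeq2 called 4 higher and 0 lower. The 3 were ITGA3 at 2.16 (SE 0.37, adjusted p = 0.0087), LAMB2 at 1.29 (SE 0.23, adjusted p = 0.011) and LAMA1 at 1.17 (SE 0.24, adjusted p = 0.02). The median difference was 0.50 over the 34 genes and -0.04 over all genes, and all 12 laminins had a positive value. With shSCR1 as the 501Mel control the median was -0.31 over 36 genes, 14 genes and 7 of the 12 laminins had a positive value, ITGA3 turned to -0.56 (adjusted p = 0.2) and LAMB2 to -1.01 (adjusted p = 0.002), while LAMA1 was 0.85 (adjusted p = 0.0078), and 8 genes were called lower. Those 8 were ITGA5, ITGA7, ITGAX, ITGB2, ITGB3, LAMA5, LAMB2 and LAMB3, and ITGA6 (1.47), LAMA2 (2.29) and LAMA4 (3.79) were called higher, where 15.9% of all genes were called in either direction. Without single samples between 0 and 4 genes were called higher. LAMA1 lost its call without either shSCR2, either 501Mel shMITF or any Hermes 3A control sample, ITGA3 without shSCR2 replicate 2 or 501Mel shMITF replicate 2, and LAMB2 without shSCR2 replicate 1 or 501Mel shMITF replicate 2.

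The other ligands of integrins were followed as a list. Of 12 such genes 9 were tested with shBRG1 in 501Mel cells, of which 3 rose and 1 fell (21.7% and 17.4% of all genes). With shMITF 8 were tested, of which 3 rose and 0 fell (5.59% and 3.40% of all genes). Against the other scramble group, 4 of 9 rose and 2 fell with shBRG1 (32.0% and 20.1% of all genes). For shMITF 3 of 9 then rose and 4 fell (12.2% and 17.6% of all genes). TGFBI, a secreted matrix protein bound by several integrins, rose by 4.14 (SE 0.12, adjusted p = 2.7e-19) with shBRG1 and 3.16 (SE 0.41, adjusted p = 0.0015) with shMITF in 501Mel cells, and by 1.88 (SE 0.20, adjusted p = 2.8e-09) and 3.10 (SE 0.33, adjusted p = 0.001) in Hermes 3A cells. EDIL3, an RGD protein, rose in 501Mel cells by 3.37 and 2.71, and TNC (tenascin-C) by 2.91 and 2.02. With the other scramble group as the control EDIL3 gave 1.66 and 4.32, both called, and TNC 4.65 with shBRG1 and 0.34 (adjusted p = 0.42) with shMITF, the latter no longer called. Of the Hermes 3A values, 3 of 9 tested ligands rose and 1 fell with shBRG1 (5.78% and 3.47% of all genes), and 4 rose and 1 fell with shMITF (3.35% and 4.04%). There THBS1 (thrombospondin-1) rose by 2.58 (SE 0.073, adjusted p = 1.5e-21) and 4.73 (SE 0.68, adjusted p = 0.0039), and SPP1 (osteopontin) fell, at -2.24 (SE 0.049, adjusted p = 6e-24) and -3.18 (SE 0.46, adjusted p = 0.0038), with one control group for both hairpins. The median over the ligands was -0.42 and 0.22 in 501Mel cells and 0.71 and 1.17 in Hermes 3A cells for shBRG1 and shMITF in turn, and with the other scramble group 0.86 and 0.25 in 501Mel cells.

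Of 10 listed partners of laminins, 9 were tested with shBRG1 in 501Mel cells, of which 2 rose and 4 fell (21.7% and 17.4% of all genes), with a median of -0.78. With shSCR2 as the control 2 of 9 rose and 1 fell (32.0% and 20.1% of all genes), with a median of -0.086. BCAM, the Lutheran glycoprotein that binds the alpha5 chain, was -3.91 (SE 0.11, adjusted p = 2.9e-19) against shSCR1. BCAM was itself called lower with shSCR2 than with shSCR1, so the size of its fall depends on the control. The proteoglycan agrin (AGRN) was -1.77 (SE 0.051, adjusted p = 2.7e-19), or -0.80 against shSCR2 and no longer called. NTN4 (netrin-4), which binds laminin gamma chains, rose in 501Mel cells with shBRG1 at 2.18 (SE 0.22, adjusted p = 4.3e-09) and with shMITF at 3.25 (SE 0.42, adjusted p = 0.0015), and NID2 (nidogen-2) rose with shBRG1 at 2.05 (SE 0.16, adjusted p = 3.1e-11). Of all 10 partners in Hermes 3A cells, 2 rose with shBRG1 (5.78% of all genes) and 1 with shMITF (3.35%), where NTN4 rose with both, at 3.00 (SE 0.59, adjusted p = 7.9e-05) and 4.76 (SE 0.87, adjusted p = 0.009).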

How the data were processed

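Total RNA of 501Mel and Hermes 3A cells was depleted of ribosomal RNA, fragmented, copied to cDNA and treated with duplex-specific nuclease, which lowers abundant transcripts, so differences in level between genes may be compressed. The authors deposited whole-number read counts per gene for each sample. The submitters' processing notes name CASAVA 1.8, TopHat 1.4.1, Bowtie 0.12.7 and build hg19. The counter, its annotation release and the use of strand are not given in the sources used here, so reads of overlapping genes (22 of the 38 share exonic bases with another gene) cannot be assigned with certainty. Depth per sample ranged from 29158502 to 78857900 counts, and detection limits of 3 counts cover counting error only.

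Identifiers were matched to GENCODE 29 (41130 of 44717), which gave symbols, GRCh38 positions and exon lengths, and sequences came from RefSeq (GRCh38.p14). Each comparison was fitted on its own groups over all genes with edgeR 4.0.16 in R 4.3.3 (TMM scaling, filterByExpr, robust quasi-likelihood test, Benjamini-Hochberg adjustment), and interactions in joint fits. SE was the size of the log2 fold change over the root of F. The step was tested on simulated data. CPM used TMM factors over all 19 samples. Alternatives were DESeq2 1.42.0, library-size scaling, other filters (a minimum of 10 counts), thresholds, controls, a replicate block and each sample left out. Python 3.11.15 and matplotlib 3.10.9 made tables and figures.

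Samples were grouped by their labels. Genes and lists were chosen with earlier results of these data known. Values per sample are given for genes called in a knockdown or between the lines with at least 100 counts on average in the higher group and for those of highest level per length, and up to 4 called genes are named per list and comparison. Other genes with values (ITGA2B, ITGAD, ITGB4, LAMB4, ITGAM, LAMA2 in 501Mel cells, genes called only with the other scramble control and the overlapping genes) were chosen after their values were seen. Values of 1 gene are not reported here by name, although counts include it.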

Additional observations from a re-analysis of the deposited data

Results flagged for a closer look

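The difference in response between the lines, 501Mel minus Hermes 3A, was tested as an interaction with edgeR's quasi-likelihood test, and the 25 values given here passed an adjusted p of 0.05 with a size over 1 on the log2 scale. For shBRG1, 8 laminin chains with a lower effect in 501Mel cells differed by -2.67 (LAMA5), -2.47 (LAMA3), -2.22 (LAMB1), -1.65 (LAMA1), -1.61 (LAMC1), -1.54 (LAMC3), -1.50 (LAMB4) and -1.36 (LAMB2), and LAMA4 by -1.001. The laminin chains with a higher effect included LAMB3 at 2.93 and LAMA2 at 2.84. Integrin subunits with a lower effect were ITGA11 at -3.65, ITGAX at -3.20, ITGA7 at -3.02, ITGA9 at -2.82, ITGA6 at -1.50, ITGB4 at -1.18, ITGB8 at -1.17 and ITGB1 at -1.003. Those with a higher effect were ITGA4 at 3.48, which has 0 to 2 counts in 501Mel samples, ITGB7 at 2.51 and ITGA10 at 2.28. For shMITF, ITGA3 differed by 2.16, LAMB2 by 1.29 and LAMA1 by 1.17. With the other scramble group of 501Mel cells as the control, the shBRG1 values of ITGA4, ITGA7, ITGA11, ITGB1, LAMA5 and LAMB4 and the shMITF value of LAMA1 were no longer called, and those of ITGAX, LAMB2 and ITGA3 turned.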

How the results depend on the processing

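Counts of integrins and laminins are given as rises and falls (for the lines and interactions, higher and lower in 501Mel cells). Without a fold threshold there were 10 rises with shBRG1 in 501Mel cells, 14 rises and 10 falls with shBRG1 and 2 rises with shMITF in Hermes 3A cells, and 7 genes higher with shSCR2 than shSCR1. The tested integrins and laminins in these comparisons numbered 35, 32, 31 and 35 in turn. Over all genes tested the counts were 8442 and 8022 of 20514, 4862 and 4934 of 17222, 1296 and 1510 of 16508 and 6720 and 6583 of 19056. With glmTreat, shMITF in 501Mel cells gave 1 rise and 0 falls (7 genes passed an adjusted p of 0.05 and the fold threshold under the edgeR test), shBRG1 in Hermes 3A cells 0 rises (2 under the edgeR test), shMITF in Hermes 3A cells 0 rises and 1 fall, the shMITF interaction 0 genes and the scramble comparison 1 higher gene. Over all genes glmTreat gave 141 and 82 of 17701, 358 of 17222, 83 and 102 of 16508, 46 and 14 of 19284 and 1331 of 19056 in turn. Requiring at least 10 counts in every sample gave 3 higher and 11 lower for the shBRG1 interaction (1709 and 1851 of 14077 over all genes). Between scrambles it gave 1 higher gene (1212 of 14974 over all genes). Library sizes gave 5 rises with shBRG1 in Hermes 3A cells (1231 of 17222 over all genes), and one fit of all Hermes 3A groups gave 2 rises with shMITF (759 of 17652). With both scramble groups pooled, shMITF in 501Mel cells gave 0 rises and 1 fall (327 and 248 of 19569 over all genes). With shSCR1 only or shSCR2 only, 10 or 2 genes were higher in 501Mel than in Hermes 3A cells (4333 of 18731 or 3851 of 18610 over all genes).

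With the other scramble group as the control, chosen after seeing the data, shBRG1 in 501Mel cells gave 14 rises (32.0% of all genes) and shMITF 13 falls (17.6%). The shBRG1 interaction gave 13 higher and 10 lower and the shMITF interaction 8 lower. Of all genes 35.6% and 15.9% were called in either direction in these interactions. LAMB2 then turned to 0.12 with shBRG1 in 501Mel cells, 0.97 in the shBRG1 interaction and -1.01 in the shMITF interaction. ITGA3 turned to -0.91 with shMITF in 501Mel cells, -0.31 against the pooled scrambles and -0.56 in the interaction. ITGAX turned to -0.19 between the lines with shSCR2 only and 1.02 in the shBRG1 interaction. The cause was not tested.

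Without single samples the counts were 6 to 8 rises and 12 to 13 falls for shBRG1 and 3 to 5 rises and 2 falls for shMITF in 501Mel cells. In Hermes 3A cells they were 1 to 3 and 3 to 4 for shBRG1 and 1 to 2 and 4 to 7 for shMITF. They were 6 to 7 higher and 17 to 18 lower between the lines, 4 to 6 and 14 to 18 for the shBRG1 interaction, 0 to 4 and 0 for the shMITF interaction, and 2 to 4 and 12 to 17 between scrambles. Where this left 1 sample in a group, that sample was assumed to vary like the other group. Samples with the same replicate number did not deviate together with 3 pairs (correlations from -0.049 to 0.049), so the numbers were not taken as pairs. With a replicate block the counts of rises and falls were 6 and 12, and 5 and 3, for shBRG1 and shMITF in 501Mel cells, 2 and 4, and 1 and 6, in Hermes 3A cells, 6 and 17 between the lines, 6 and 16 and 3 and 0 for the interactions, and 2 and 14 between scrambles. Of the knockdowns, lines and interactions, the shBRG1 interaction of ITGB4 was the call lost (adjusted p = 0.050), and between scrambles there were 2 calls fewer. DESeq2 counts were within 1.5 times of those of edgeR in every comparison. A tally of single genes followed only the calls of the edgeR test in the knockdowns, lines and interactions under these settings. Of these values, 1322 kept direction and side of the threshold, 125 kept direction only and 8 turned. The 1322 include the setting without a fold threshold, which keeps every call by design. Genes too low to be tested under a setting, and calls gained under a setting, are not in this tally, so it does not measure stability over all tested genes.

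Depth limits the genes under 1 CPM, and the 2 samples per group of the 501Mel shMITF experiment limit its precision.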

Other observations

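The intracellular side of integrin adhesions was covered by a list of 24 adaptors and kinases. With shBRG1 in 501Mel cells 4 of 23 tested rose and 8 fell, where 21.7% and 17.4% of all genes did, with a median log2 fold change of -0.39. Against shSCR2 in place of shSCR1, 6 of 23 rose and 7 fell, where 32.0% and 20.1% of all genes did. ZYX (zyxin), which gathers at focal adhesions under tension, rose in all 4 knockdowns, by 3.55 (SE 0.074, adjusted p = 7e-21) with shBRG1 and 1.16 (SE 0.13, adjusted p = 0.00094) with shMITF in 501Mel cells and by 1.29 (SE 0.042, adjusted p = 3.2e-20) and 1.34 (SE 0.17, adjusted p = 0.0023) in Hermes 3A cells. TNS1 (tensin-1), which links integrin beta tails to actin, fell with shBRG1 in both lines, at -4.83 (SE 0.25, adjusted p = 1.3e-14) and -1.52 (SE 0.19, adjusted p = 8.9e-08), and with shMITF in 501Mel cells at -3.38 (SE 0.47, adjusted p = 0.0021). PARVB (beta-parvin) was -2.58 (SE 0.056, adjusted p = 1.7e-21) and TNS3 (tensin-3) -2.41 (SE 0.066, adjusted p = 7.3e-20) with shBRG1 in 501Mel cells. In Hermes 3A cells 2 of 22 tested rose and 2 fell with shBRG1 (5.78% and 3.47% of all genes), and 1 rose and 1 fell with shMITF (3.35% and 4.04%). The talin gene TLN2 was -1.20 (SE 0.16, adjusted p = 0.003) with shMITF there. With shMITF in 501Mel cells 1 of 20 tested rose and 2 fell (5.59% and 3.40% of all genes).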
